A study of Mus musculus with 3 samples.

Results

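The genes that move zinc and copper across membranes, store these metals and hand them to proteins were examined in hearts of wild-type (WT) male mice aged 12 weeks. The members were every gene of the deposited table whose symbol starts with Slc30a or Slc39a, together with Mt1, Mt2, Mt3, Mtf1, Slc31a1, Slc31a2, Atp7a, Atp7b, Atox1 and Ccs. This gave 32 of 16587 genes, namely 9 Slc30a genes, 13 Slc39a genes and 10 others. Poly(A) RNA was sequenced in 3 libraries of a single group, so no contrast between treatments or genotypes existed, and levels and their spread between libraries are what the design gives. The labels name no strain. Nothing in them says whether the libraries are from separate animals, so p-values describe the spread of these 3 samples, which may be technical.

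Zinc is held by many enzymes and zinc-finger proteins, and its free concentration in the cytosol is kept low. Importers of the Slc39a (ZIP) family bring zinc into the cytosol from outside the cell or from organelles, exporters of the Slc30a (ZnT) family move it the other way, and the cysteine-rich metallothioneins bind it. The transcription factor Mtf1 senses zinc and binds metal response elements in the promoters of metallothionein genes and of Slc30a1. Copper enters through Slc31a1 and is passed by dedicated chaperones to superoxide dismutase, to the copper pumps of the Golgi and to cytochrome oxidase, the copper enzyme on which the respiration of heart muscle depends.

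The promoters of Mt1, Mt2 and Slc30a1 are shown because these genes are the textbook targets of Mtf1. That of Mt3 is set beside them because Mt1, Mt2 and Mt3 lie next to each other on chromosome 8 and ranged from the highest member to one below the detection limit. Each window runs from 250 bases before to 50 bases after the start site annotated by RefSeq on build GRCm38.p6, which is not the build named for the counts, and is matched by symbol. Capitals mark the core of the metal response element, TGCACNC or TGCGCNC, read on either strand. The windows are chr8:94178839-94179138 for Mt1, chr8:94172368-94172667 for Mt2, chr8:94152357-94152656 for Mt3 and chr1:191906531-191906830 for Slc30a1, all on the plus strand.
Mt1: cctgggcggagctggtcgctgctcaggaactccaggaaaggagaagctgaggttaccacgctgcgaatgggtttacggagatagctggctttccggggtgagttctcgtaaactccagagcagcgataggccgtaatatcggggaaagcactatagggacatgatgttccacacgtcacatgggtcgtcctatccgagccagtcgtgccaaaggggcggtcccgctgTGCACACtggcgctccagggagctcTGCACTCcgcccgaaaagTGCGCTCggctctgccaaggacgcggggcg
Mt2: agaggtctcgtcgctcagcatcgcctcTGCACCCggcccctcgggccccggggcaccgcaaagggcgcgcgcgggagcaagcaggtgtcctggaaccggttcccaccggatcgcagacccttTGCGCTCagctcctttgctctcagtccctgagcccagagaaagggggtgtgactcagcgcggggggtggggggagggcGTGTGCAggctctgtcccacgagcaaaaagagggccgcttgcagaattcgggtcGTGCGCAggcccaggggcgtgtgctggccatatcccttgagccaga
Mt3: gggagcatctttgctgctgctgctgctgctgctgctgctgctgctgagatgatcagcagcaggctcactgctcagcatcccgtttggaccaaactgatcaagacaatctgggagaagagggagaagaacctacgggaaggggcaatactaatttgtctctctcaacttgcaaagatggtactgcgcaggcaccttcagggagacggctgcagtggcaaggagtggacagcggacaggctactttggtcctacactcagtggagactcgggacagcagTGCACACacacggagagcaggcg
Slc30a1: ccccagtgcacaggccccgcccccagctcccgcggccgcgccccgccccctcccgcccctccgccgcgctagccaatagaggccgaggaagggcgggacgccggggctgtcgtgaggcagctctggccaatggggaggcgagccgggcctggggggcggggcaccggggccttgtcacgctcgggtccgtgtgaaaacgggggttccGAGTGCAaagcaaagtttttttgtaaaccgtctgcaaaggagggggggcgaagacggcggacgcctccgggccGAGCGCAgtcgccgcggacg

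The Mt2 window held 4 matches to this core and the Mt1 window 3, against 1 in the Mt3 window and 2 in the Slc30a1 window. Of all 32851 promoter windows of 300 bases in the RefSeq table, 25.7% held at least 1 match, 7.11% at least 2, 1.97% at least 3 and 0.517% at least 4. A window was found for 28 of the 32 members. Each was counted by its window with the most matches, and 16 of the 28 had at least 1 match. This is a number of genes, while the percentages above are of single windows. The windows were not matched for GC content. The vesicle zinc exporter Slc30a4 and Slc30a10 also had 3 matches each, although an adjoining pair in Slc30a10 is nearly the same stretch read on both strands. A match is a description of the letters and not evidence that Mtf1 binds there. Matches outside a window were not counted, so their numbers and positions depend on the start site that RefSeq annotates.

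**Figure D1:**
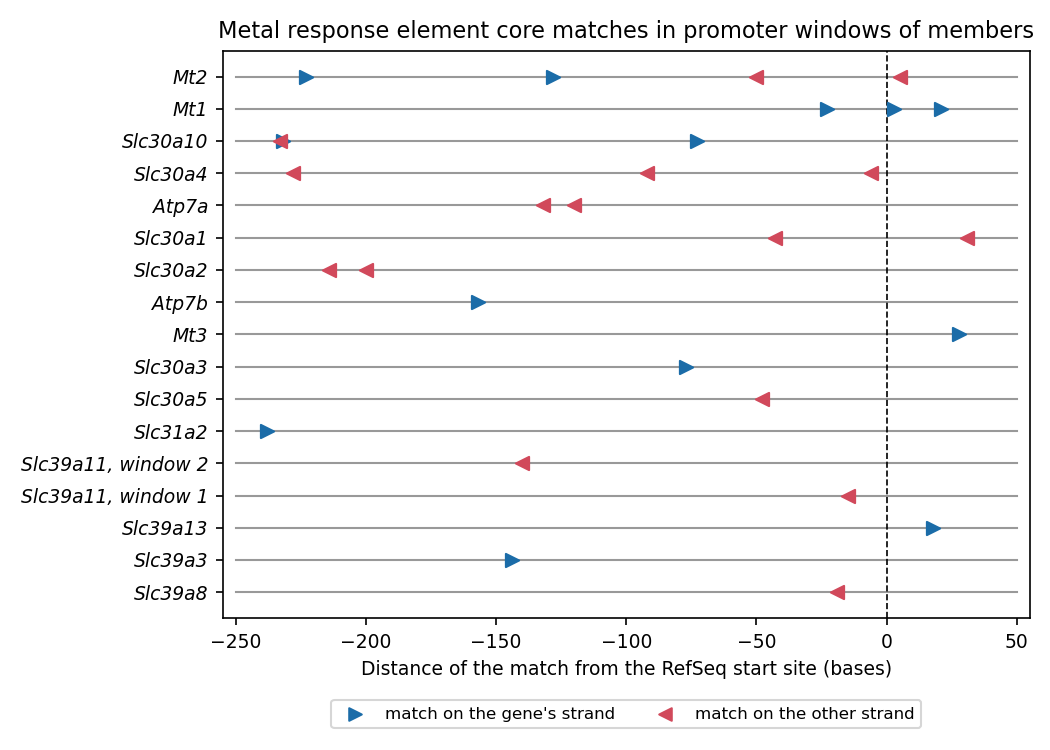
Positions of metal response element core matches (triangles, pointing right on the gene's strand and left on the other) in the 300-base promoter windows of members with at least 1 match; the x axis gives the distance in bases from the RefSeq start site. Mt2 has 4 matches spread over the window, while the 3 matches of Mt1 lie between -23 and 21 bases of the start site.

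The libraries held 24914479 to 26398140 counts. Levels are given as CPM (counts per 1000000 counts of the library) or, wherever genes are compared with each other, as TPM (counts first divided by the annotated exon length, then brought to a sum of 1000000), each with its mean ± SD (n = 3 libraries) where the libraries are not listed one by one. A count of 0 allows a true level of up to 3 counts, or 0.114 to 0.120 CPM, by counting error only. All 10 marker genes of heart muscle cells were detected in every library. In bulk tissue, fewer cells of a type and less RNA per cell cannot be told apart. Hepatocyte markers summed to 169, 17.0 and 17.3 CPM in libraries 1, 2 and 3, and the 13 of them were all highest in library 1. Erythroid markers summed to 2272, 1091 and 1740 CPM, and mesothelial markers to 37.8, 32.8 and 46.9 CPM.

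Detection meant that no library was below 1 CPM. By this rule 24 of 32 members were detected, close to the 71.3% of all genes that were. They were 2 of 3 metallothioneins, Mtf1, 6 of 9 zinc exporters, 10 of 13 zinc importers, both copper importers, both copper chaperones and 1 of 2 copper pumps. The 8 that were not detected reached between 0 and 27 counts in any library. Several of these are known from other tissues: the brain metallothionein Mt3, the synaptic vesicle exporter Slc30a3, the intestinal zinc importer Slc39a4 and the liver copper pump Atp7b.

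The metallothioneins were the highest members. Mt1 stood at 620, 732 and 607 TPM in libraries 1, 2 and 3, above 98.6% of the genes with a length. Mt2 stood at 590, 429 and 359 TPM, above 97.9% of them. Mt1 was highest in library 2 and Mt2 in library 1, and Mt2 did not reach the level of Mt1 in any library. Mt3, at 17, 27 and 9 counts, reached 1 CPM in library 2 alone. From counts summed over the libraries, Mt1 exceeded Mt3 by 337-fold per kilobase, with an exact 95% interval of 258 to 450 that covers counting error only.

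The excess of Mt1 over Mt2 depended on the library and on the gene length. Per kilobase of all annotated exons the ratio was 1.05, 1.71 and 1.69 in libraries 1, 2 and 3, a mean log2 ratio of 0.53 ± 0.40 (limma adjusted p = 0.00603). This p-value also draws on the variance of the other tested pairs, most of which were spread less than this pair. Without library 2 (adjusted p = 0.163) or library 3 (adjusted p = 0.27) the excess of Mt1 no longer passed 0.05. The annotated exons of Mt1 span 1246 bases, more than its principal transcript of 549 bases, while those of Mt2 span 588 and 511 bases. With the principal transcript as length, an alternative chosen after seeing the data, the log2 ratio was 1.51 (adjusted p = 3.39e-06). Both genes are short, and counts per kilobase of short transcripts also depend on the fragment sizes of a library, which the labels do not state. Mt2 also shares 432 bases of exon with an antisense RNA, and the labels do not state strandedness, so reads from both cannot be told apart.

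Mtf1, the zinc-sensing transcription factor that acts on these promoters, was low beside its targets. It had 498, 418 and 489 counts, or 6.20 ± 0.862 TPM, against 459 ± 119 TPM for Mt2 and 18.7 ± 1.94 TPM for Slc30a1. A coding gene on the opposite strand, 1110065P20Rik, shares 721 bases of exon with Mtf1.

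Zinc exporters summed to 82.1, 81.6 and 89.6 TPM in the 3 libraries. Slc30a9, a zinc transporter of mitochondria, was highest at 29.3, 32.9 and 32.6 TPM and made up 37.4% of the sum. Slc30a1, the exporter of the plasma membrane, stood at 20.5, 16.7 and 19.1 TPM. Slc30a9 was above Slc30a1 in all 3 libraries. It exceeded Slc30a1 by a log2 ratio of 0.76 ± 0.23 (limma adjusted p = 0.000154), which no longer passed 0.05 without library 3 (adjusted p = 0.0748). With the longest transcript of Slc30a9, which is shorter than its combined exons, the log2 ratio was 1.87.

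Exporters of the secretory pathway and of vesicles were lower per combined exon length. With the longest transcript, Slc30a5 was above Slc30a1, at 15.3 and 13.9 TPM, and Slc30a6 above Slc30a4, at 8.53 and 7.61 TPM. Slc30a5, which forms a heterodimer with Slc30a6 and loads zinc into enzymes of the early secretory pathway, had 11.4 ± 1.09 TPM. Slc30a4, an exporter into vesicles, had 10.3 ± 0.915 TPM, and the ranges of Slc30a5 and Slc30a4 overlapped between libraries. Slc30a6 had 8.07 ± 0.976 TPM and Slc30a7, which works in the same compartment as a homodimer, 4.05 ± 0.254 TPM. Slc30a5 exceeded its partner Slc30a6 by a log2 ratio of 0.50 ± 0.03 (adjusted p = 0.000873) and Slc30a7 by 1.49 ± 0.09 (adjusted p = 2.4e-07). With the principal transcripts these ratios were 1.18 and 2.39.

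The remaining exporters were near the floor. Slc30a2, known for zinc secretion into milk, had 2, 5 and 2 counts, Slc30a3 had 0, 4 and 11, and Slc30a10, a manganese exporter known from liver and brain, had 0, 7 and 0. None of them reached 1 CPM in any library. Counts summed over the libraries put Slc30a4 at 104-fold above Slc30a2 per kilobase, with a 95% counting interval of 54.4 to 227. Slc30a1 was 399-fold above Slc30a10, its closest relative among the exporters here, with an interval of 193 to 993.

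**Figure D2:**
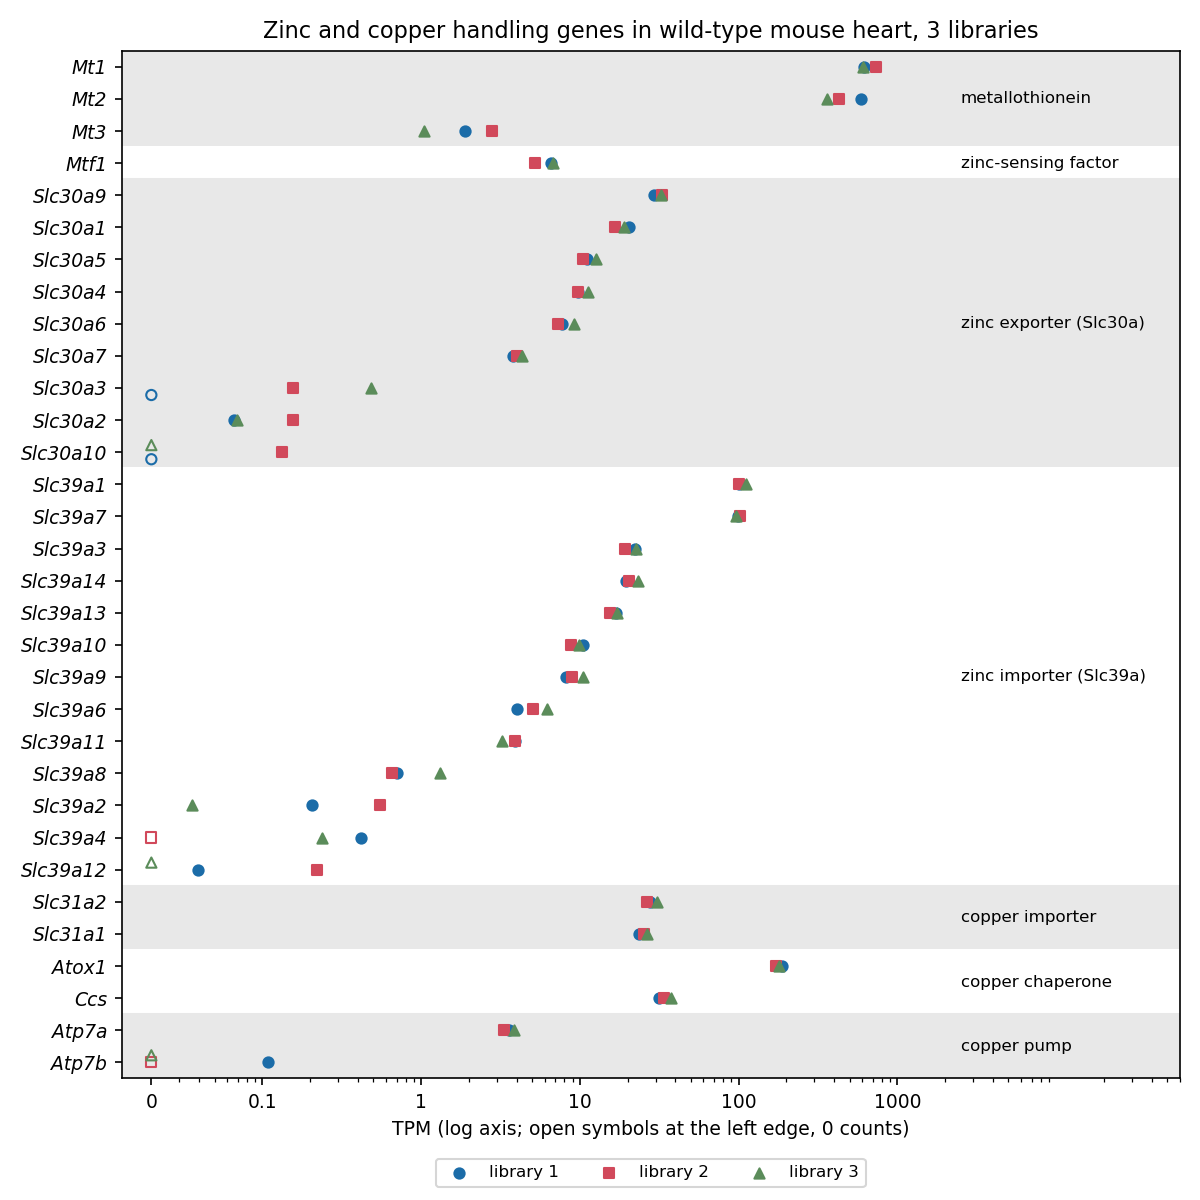
TPM of the 32 members in each of the 3 libraries (circles, squares and triangles) on a log axis, grouped by role; open symbols at the left edge are libraries with 0 counts. Mt1, Mt2 and Atox1 are highest, and the 8 members that were not detected lie at the left of their groups.

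Zinc importers summed to 286, 286 and 303 TPM. The sum was 3.49, 3.51 and 3.38 times that of the exporters in libraries 1, 2 and 3. This ratio depended on length, at 2.58 with the longest transcript, 2.55 with the principal transcript and 1.55 from CPM with no length correction, each from means over the libraries. These transcript levels do not give the direction of zinc transport, since importers of organelles and of the cell surface are counted together. Slc39a1, an importer of the plasma membrane, stood at 101.1, 100.4 and 112 TPM. Slc39a7, which releases zinc from the endoplasmic reticulum and Golgi, stood at 98.3, 102 and 96.4 TPM. The ranges of these highest importers overlapped, and Slc39a1 was above Slc39a7 in 2 of 3 libraries. The exons of Slc39a7 share 2084 bases with Gm20427, a noncoding gene on the same strand that the count table does not list, so reads from both cannot be told apart.

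Per combined exon length the next importer was Slc39a3, which Slc39a7 exceeded by 4.63-fold. Slc39a3, a plasma membrane importer of the same subfamily as Slc39a1, had 21.4 ± 1.78 TPM, and Slc39a14, which carries zinc, iron and manganese, had 21.0 ± 2.01 TPM, with overlapping ranges at this length. With the longest transcript the third importer was instead Slc39a14 at 32.0 TPM, with Slc39a7 at 2.43 times its level, Slc39a13 at 24.1 TPM and Slc39a3 at 16.7 TPM. Slc39a13, a transporter of the secretory pathway whose loss in humans affects connective tissue, had 16.5 ± 0.948 TPM. Slc39a10 had 9.74 ± 0.869 TPM and the Golgi transporter Slc39a9 9.17 ± 1.12 TPM, and their ranges also overlapped at this length. With the longest transcript Slc39a9 was above Slc39a10, at 12.7 and 7.98 TPM. Slc39a6 (5.08 ± 1.07 TPM), Slc39a11 (3.70 ± 0.398 TPM) and Slc39a8 (0.894 ± 0.373 TPM) completed the detected importers. The exons of Slc39a9 share 459 bases with Erh, and those of Slc39a13 share 215 bases with Psmc3, in both cases a coding gene on the opposite strand.

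Paired importers were separated by different amounts. Slc39a14 exceeded Slc39a8, its closest relative in metals carried, by a log2 ratio of 4.61 ± 0.43, which is 24.5-fold (limma adjusted p = 1.91e-09). Slc39a7 exceeded Slc39a13 by 2.58 ± 0.13 (adjusted p = 4.53e-09), Slc39a1 exceeded Slc39a3 by 2.29 ± 0.10 (adjusted p = 7.47e-09) and Slc39a9 exceeded Slc39a11 by 1.30 ± 0.33 (adjusted p = 6.64e-06). With the longest transcript the log2 ratio of Slc39a7 to Slc39a13 was 1.69 and that of Slc39a9 to Slc39a11 was 1.93. Slc39a6 was below Slc39a10, with which it forms a heteromer, in every library, at log2 ratios of -1.39, -0.80 and -0.68 (adjusted p = 0.000125). This difference did not pass 0.05 without library 3 (adjusted p = 0.062). At the cell surface, the importer Slc39a1 exceeded the exporter Slc30a1 by 2.48 ± 0.16 (limma adjusted p = 6.81e-09). All 3 definitions give the same length, 2364 bases for Slc39a1 and 5244 for Slc30a1, so they could not move this ratio. With no length correction the log2 ratio was 1.33.

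Of the other importers, Slc39a2 had 6, 17 and 1 counts, Slc39a4 had 11, 0 and 6, and Slc39a12, known from brain, had 1, 6 and 0. None of these reached 1 CPM in any library. From summed counts Slc39a1 was 383-fold above Slc39a2, a member of its subfamily, with a 95% counting interval of 257 to 598.

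Per combined exon length, the levels of the copper uptake genes were not shown to differ. Slc31a1, the plasma membrane copper importer, had 851, 979 and 917 counts and 25.1 ± 1.56 TPM. Its paralog Slc31a2, which is found in endosomes and lysosomes, had 475, 486 and 506 counts and 28.3 ± 2.23 TPM. Only the Fkbp15 gene separates this pair among the coding genes of chromosome 4. Their log2 ratio of -0.17 ± 0.09 (95% interval -0.40 to 0.06) did not pass the threshold (limma adjusted p = 0.128). The direction was reversed with no length correction, at 0.90, and with the longest transcript the ratio of -0.29 passed (adjusted p = 0.0201).

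Among the copper chaperones, Atox1, which carries copper to the pumps, was the third highest member at 188, 173 and 181 TPM. Ccs, which loads copper into the superoxide dismutase Sod1, stood at 31.3, 33.7 and 37.6 TPM. Atox1 exceeded Ccs by a log2 ratio of 2.40 ± 0.17 (limma adjusted p = 7.47e-09), or 1.66 with the longest transcript. Ccs was below its client Sod1 by -2.76 ± 0.18 (adjusted p = 4.53e-09), a 6.78-fold difference that ranged from 4.06-fold to 25.2-fold over the 3 definitions of length.

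The copper pump Atp7a, which delivers copper to secreted enzymes and exports it, was low and even, at 264, 261 and 272 counts and 3.58 ± 0.269 TPM. Atox1 exceeded this pump by a log2 ratio of 5.66 ± 0.09, which is 50.5-fold (limma adjusted p = 1.66e-11), and by 28.3-fold with the longest transcript. Slc31a1 exceeded Atp7a by a log2 ratio of 2.81 ± 0.11 (adjusted p = 3.19e-09), or 2.02 with the longest transcript. Atp7b, the pump that sends copper to bile in the liver, had 6, 0 and 0 counts. All of its counts were in library 1, where hepatocyte markers were also highest, and their part in this value was not tested. Summed counts put Atp7a at 98.9-fold above Atp7b, with a 95% counting interval of 45.3 to 270.4.

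**Figure D3:**
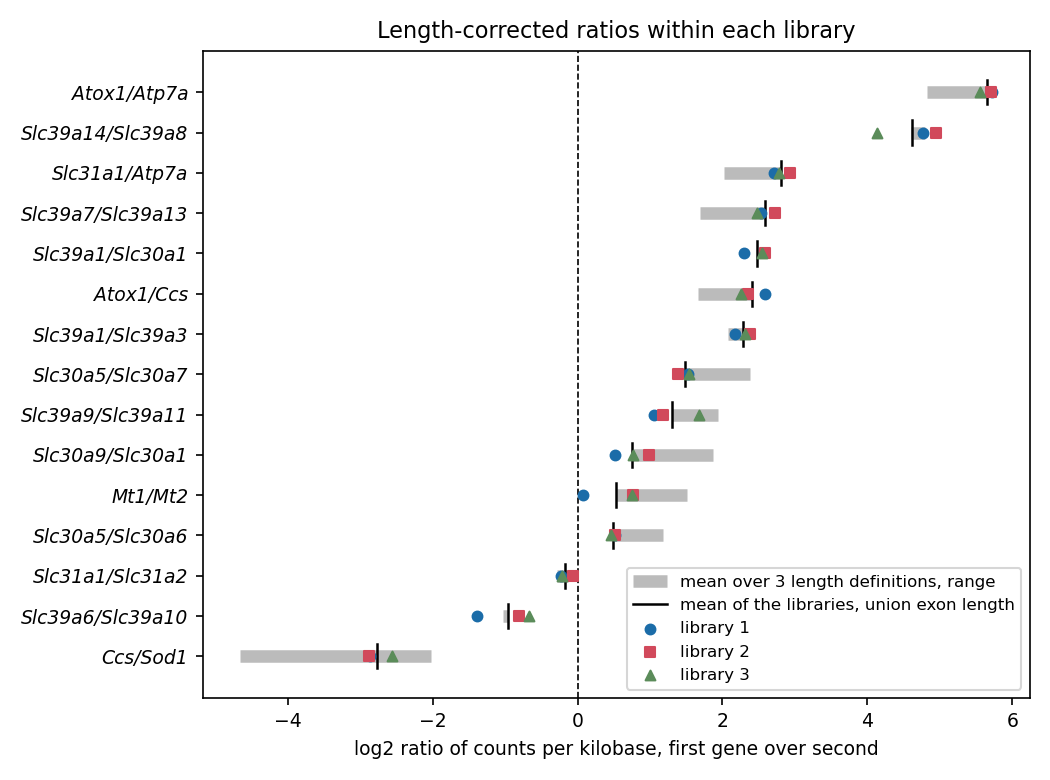
Log2 ratios of counts per kilobase for the 15 tested pairs, first gene over second; points are the 3 libraries, black ticks their mean with the combined exon length, and grey bars the range of the mean over 3 definitions of length. The points and the bars differ in width from pair to pair, and Mt1/Mt2 in library 1 lies nearest to 0 of its 3 points.

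Of the 20 preset pairs, 15 had at least 10 counts of both genes in every library and were tested. By limma, 14 of these passed 0.05, and 10 were also past 2-fold by limma's test against that size. The 4 significant pairs that were not shown to exceed 2-fold were Mt1/Mt2, Slc30a5/Slc30a6, Slc30a9/Slc30a1 and Slc39a6/Slc39a10. Length moved 7 of the 15 ratios by over 1.5 times with the longest transcript and 10 with the principal transcript, and the sign of none of them changed under either.

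Spread between libraries was tested with an edgeR negative binomial model with 1 common mean, fitted to all genes past the filter on low counts, with Benjamini-Hochberg adjustment. It called 0.591% of 12521 genes as more variable than genes of their level. The 24 detected members passed the filter and the other 8 were removed by it. Mt2 was the 1 member called (adjusted p = 0.0186), and it was also the 1 member at an unadjusted p under 0.05, which 5.39% of all genes tested reached. The median SD of log2 CPM was 0.10 over the 24 members and 0.14 over all genes tested.

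Mt2 stood at 116, 86.1 and 68.4 CPM in libraries 1, 2 and 3. It was highest in library 1 and lowest in library 3, with 1.70-fold between them. The call was kept by DESeq2's dispersion trend (adjusted p = 0.0143), which called 0.543% of the genes tested, and was lost without library 1 (adjusted p = 0.976) or library 3 (adjusted p = 0.73). Mt1, its neighbour, did not follow this order, at 259, 311 and 245 CPM (adjusted p = 0.999). The sum of Mt1 and Mt2 was 376, 397 and 314 CPM.

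Other gene lists also differed between the libraries. Hepatocyte markers were highest in library 1, with Alb at 1447, 0 and 29 counts, and the liver is known for high metallothionein levels. Library 1 was highest for 16 of 23 immediate early genes, library 2 for the other 7 and library 3 for none, and their summed level was 1865, 1608 and 1301 CPM. Of these 23 genes, 10 varied beyond the edgeR threshold, against 0.591% of all genes tested. An unadjusted edgeR p under 0.05 was reached by 16 of them, against 5.39% of all genes tested. Of the 15 glucocorticoid-responsive genes, Errfi1 (121, 78.2 and 57.0 CPM) and Dusp1 (227, 273 and 146 CPM) varied beyond the edgeR threshold. An unadjusted edgeR p under 0.05 was reached by 7 of the 15, and Dusp1 is also 1 of the varied immediate early genes. The glucocorticoid-responsive list summed to 3333, 3553 and 3010 CPM, so its sum, like Dusp1, was highest in library 2. All 8 erythroid markers were highest in library 1, and 5 of them varied beyond the edgeR threshold. Neutrophil markers summed to 18.6, 13.1 and 7.55 CPM, and none varied beyond the edgeR threshold. Of the 7, 4 were highest in library 1, 1 in library 2 and 2 were at 0 in every library. Library 3 was highest for the varied fibroblast markers Col1a1 (45.1, 47.7 and 79.8 CPM) and Col3a1 (92.5, 138 and 177 CPM). The varied mast cell markers Cma1 and Tpsb2 were also highest there, and mast cell markers summed to 6.99, 8.03 and 22.7 CPM. The mesothelial marker Msln had 0, 0 and 107 counts. The part of these in the spread of Mt2 was not tested.

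No other member was called. Slc39a8 had the largest SD of log2 CPM among the 24, 0.52, with 46, 45 and 82 counts (edgeR adjusted p = 0.999). Slc39a6 followed Mt2, at 139, 185 and 203 counts and an SD of 0.29. At the other end, Slc39a1 had an SD of 0.05 (80.2, 81.1 and 85.8 CPM), Slc39a13 0.06 and Atox1 0.06. Library 1 was highest for 7 of the detected members, library 2 for 5 and library 3 for 12. Over all genes past the filter these numbers were 3604, 4086 and 4831.

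**Figure D4:**
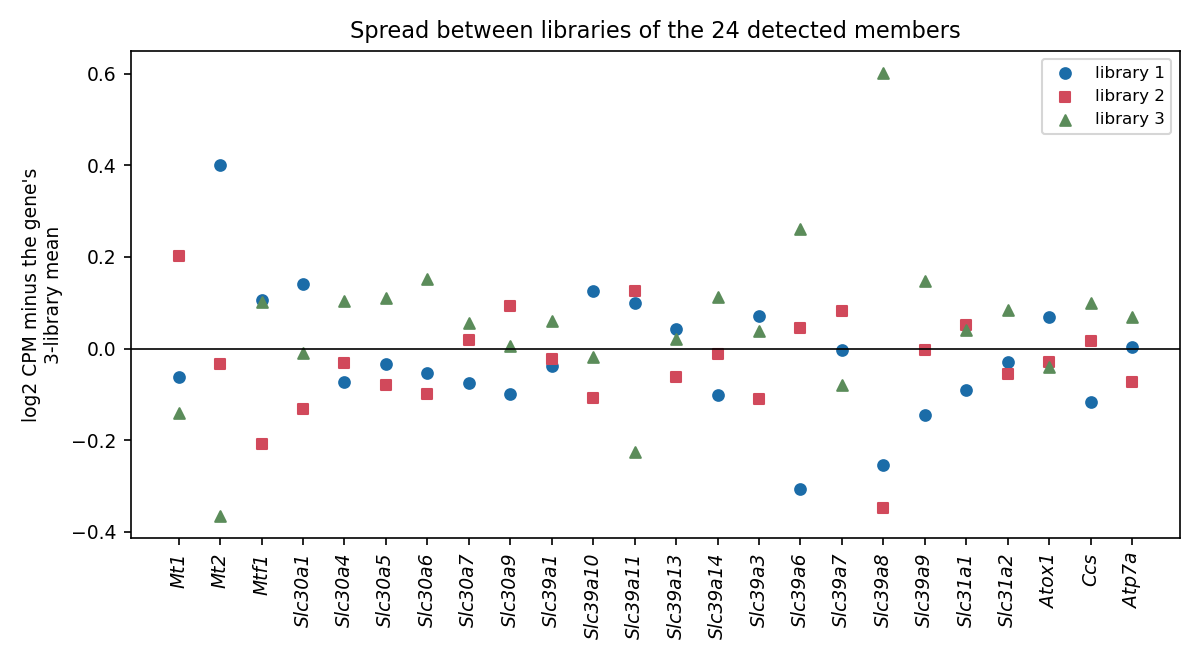
Log2 CPM of each of the 24 detected members minus that gene's mean over the 3 libraries; each point is a library. Mt2 and Slc39a8 are spread most, and Mt2 alone passed the edgeR threshold.

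Other genes of copper and zinc use were read from the same fit. The table held 31 copper enzymes and supply genes, of which 26 were detected, and none varied by edgeR or DESeq2, with 3 at an unadjusted p under 0.05. Slc25a3, the mitochondrial phosphate and copper carrier, stood at 915 ± 41.7 TPM, the chaperone Pcbp1 at 350 ± 4.01 TPM, Sod1 at 232 ± 13.8 TPM and the peptide-amidating enzyme Pam at 152 ± 12.8 TPM. The order of the last 3 depended on length, and with the principal transcripts Sod1 stood at 929, Pam at 286 and Pcbp1 at 226 TPM. Of 28 zinc-dependent enzymes and zinc-sensing genes 20 were detected, and none varied by edgeR or DESeq2, with 1 at an unadjusted p under 0.05. This was Adh1, at 33.5, 50.4 and 59.0 CPM (edgeR adjusted p = 0.0602). By edgeR 1 gene of this list was called with library totals only, with no filter, with a minimum of 30 counts and without library 2. The carbonic anhydrase Car14 stood at 242 ± 8.11 TPM, Mpi at 128 ± 13.8 TPM, the angiotensin-converting enzyme Ace at 85.6 ± 13 TPM and Adh5 at 53.2 ± 1.33 TPM. The order of Ace and Adh5 depended on length, and with the principal transcripts Ace stood at 59.6 and Adh5 at 116 TPM. The 13 candidate Mtf1 targets outside the members were all detected, and none varied by edgeR or DESeq2, with Ankrd1 at an unadjusted p under 0.05. Of 12 genes of the oxidative stress and heavy metal response 11 were detected, and 1, Atf3 (23.3, 9.05 and 11 CPM), varied beyond the edgeR threshold. Atf3 is also 1 of the 10 varied immediate early genes.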

How the data were processed

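The deposited table gives raw counts (whole numbers) of each gene symbol in 3 libraries, not normalized by the authors as far as the values show. Per the submitters' processing notes HISAT2 2.0.4, Bowtie2 2.2.5, RSEM and mouse build GRCm39 were used; their roles were not given, and RSEM counts may be rounded estimates. Library totals were 24914479 to 26398140, and 15118, 14883 and 15000 genes had counts in libraries 1, 2 and 3. No pair of libraries was alike within sampling noise (chi-square per degree of freedom 14.1 to 19.0).

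Lengths (combined exons) are those of GENCODE M21, made for an earlier build and matched by symbol for 16077 genes and all 32 members; no coordinates were taken from it. Ratios within a library, after adding 0.5 counts, were tested with limma 3.58.1, two-sided, adjusting p over the 15 pairs by Benjamini-Hochberg. Spread between libraries was tested with edgeR 4.0.16 (TMM, trended dispersion, deviance against chi-square) in R 4.3.3, over 12521 genes, with DESeq2 1.42.0 as an alternative. Both tests were tested on simulated data. For the spread test these were drawn at the trended dispersion that the test itself assumes, so genes off that trend were not simulated. Pair ratios were drawn with the same dispersion for every pair. Intervals of summed counts are exact binomial and cover counting error only.

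Every member was named; from the other lists the 4 highest genes by CPM and those that varied could be named. Alb and other genes of the marker lists are given for their values in library 1 or library 3, and Adh1 for its edgeR value near the threshold. Members, pairs and lists were chosen with earlier results of these data known. Near-identical gene copies and genes that overlap on either strand are uncertain one by one. Besides the overlaps given above, Slc30a1 (468 bases), Slc30a4 (130 bases) and Slc30a10 (533 bases) share exon sequence with a noncoding gene on the opposite strand. Slc30a7 shares 637 and 1165 bases with pseudogenes on the opposite strand. Slc39a2 shares 151 bases with the coding gene Mettl17 on the same strand.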

Additional observations from a re-analysis of the deposited data

How the results depend on the processing

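Detection, at 24 of 32 members, stayed within 1.5 times of that number at limits of 0.5 CPM, 2 CPM, 10 counts or a mean of 1 CPM. The single variable member, Mt2, was called under all 5 alternatives of scaling, filter and dispersion, while leaving out 1 library gave 0 to 1 members. The count over all genes, 74 in the full fit, was 126 with no filter on low counts and 131 with a minimum of 30 counts in any library, and 17 to 51 with 1 library left out. The number of pairs that passed, 14 of 15, was 10 against a 2-fold difference and 11 without library 3. With no filter on low counts it was 18, but of all 20 preset pairs. Under the other alternatives it was 13 to 15. With no length correction Slc31a1/Slc31a2 reversed to 0.90. With the combined exons, the longest and the principal transcript it was -0.17, -0.29 and -0.13. With no filter on low counts Mt1/Mt2 no longer passed (0.53, adjusted p = 0.0726), as pairs near the floor entered the fit. No paired analysis was possible because the 3 libraries form 1 group. At this depth, a member near the floor cannot be ranked against another.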

Other observations

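Copper delivery to cytochrome oxidase was read from genes outside the members. Cox17, the chaperone that starts this route and that the member rule leaves out, had 3461, 3489 and 3021 counts. Per combined exon length Cox17 stood at 67.5 ± 2.97 TPM, and of the assembly factors that it serves Cox11 stood at 42.2 ± 6.72 TPM and Sco1 at 14.8 ± 0.900 TPM (SD, n = 3). None of Sco1, Cox11 and Cox19 varied beyond the edgeR threshold.

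Among copper enzymes, Lox, which crosslinks collagen and elastin, had 172, 135 and 283 counts, and Heph, a copper oxidase of iron export, had 45, 44 and 121. Both were highest in library 3, neither passed the edgeR threshold over all genes (adjusted p = 0.414 for Lox and 0.353 for Heph), and both were chosen after their values were seen.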
